A study of Homo sapiens with 24 samples.

Results

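The early response of LNCaP cells to the antiandrogen enzalutamide was examined by comparing cells given 10 µM enzalutamide for 4 h with cells given vehicle, by RNA-seq of polyadenylated RNA. LNCaP is an established human prostate cancer line from a lymph node metastasis that responds to androgens. The cells of both groups had been kept in phenol red-free medium with charcoal-stripped serum, which holds little androgen, so vehicle stands for androgen-deprived cells and not for cells with active androgen signalling. The comparison takes 6 of the 24 samples, 2 with enzalutamide and 4 with vehicle. Of the 4 vehicle columns, 3 carry the same replicate number in their names and were summed, which left 2 libraries against 2. The labels give no time for vehicle, so time in culture and treatment cannot be told apart. The labels call all of these samples biological replicates, which the shared number of the 3 vehicle columns leaves unclear for vehicle. How the replicate cultures were set up is not given in the sources used here.

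Enzalutamide blocks the activation of target genes by androgens. At micromolar doses cells can also respond to a drug through stress pathways. In the integrated stress response, kinases such as PERK (EIF2AK3) and GCN2 (EIF2AK4) phosphorylate the translation factor eIF2, general translation slows, and the mRNA of the transcription factor ATF4 is translated. ATF4, with partners such as DDIT3 (CHOP) and CEBPB, activates genes for amino acid synthesis, amino acid uptake and tRNA charging through a composite C/EBP-ATF response element (CARE). The unfolded protein response of the endoplasmic reticulum (ER) adds ATF6 and the IRE1 (ERN1) and XBP1 branch, which act on ER chaperones through an ER stress response element (ERSE). Cytosolic chaperones are under heat shock factors, which bind repeats of the triplet GAA and its complement.

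Because genes of the stress response moved together, the sequence before their starts is shown for 8 of the members that rose and hold a CARE, written here as TGATGNAA on either strand (RefSeq promoters, build GRCh38.p14, not the hg19 build of the data). Each line gives bases before the start site, with the match in capitals.
CHAC1: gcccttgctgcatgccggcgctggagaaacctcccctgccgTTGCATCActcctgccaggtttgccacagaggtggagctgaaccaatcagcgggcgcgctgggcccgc (chr15:40953221-40953329, plus strand)
ATF3: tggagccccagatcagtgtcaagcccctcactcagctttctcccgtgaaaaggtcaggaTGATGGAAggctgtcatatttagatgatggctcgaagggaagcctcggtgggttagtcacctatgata (chr1:212565157-212565283, plus strand)
CEBPG: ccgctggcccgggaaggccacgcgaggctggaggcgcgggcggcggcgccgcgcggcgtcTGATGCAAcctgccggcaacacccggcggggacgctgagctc (chr19:33374011-33374112, plus strand)
JDP2: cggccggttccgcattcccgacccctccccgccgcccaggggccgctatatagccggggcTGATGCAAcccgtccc (chr14:75427946-75428021, plus strand)
ASNS: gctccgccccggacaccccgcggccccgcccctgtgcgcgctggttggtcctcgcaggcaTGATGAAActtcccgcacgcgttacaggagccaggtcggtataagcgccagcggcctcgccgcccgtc (chr7:97872409-97872536, minus strand)
SLC1A5: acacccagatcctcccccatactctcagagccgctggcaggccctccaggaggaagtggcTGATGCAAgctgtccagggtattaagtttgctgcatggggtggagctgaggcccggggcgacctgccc (chr19:46784844-46784971, minus strand)
AARS: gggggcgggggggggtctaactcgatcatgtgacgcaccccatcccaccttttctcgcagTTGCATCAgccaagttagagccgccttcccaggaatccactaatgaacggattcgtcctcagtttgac (chr16:70289626-70289753, minus strand)
GARS: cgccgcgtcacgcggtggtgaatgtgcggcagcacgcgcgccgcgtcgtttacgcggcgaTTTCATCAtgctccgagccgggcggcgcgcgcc (chr7:30594785-30594877, plus strand)
The match lay from 209 to 202 bases before the start in CHAC1 and from 68 to 61 bases before it in ASNS. Within 250 bases before a start it was found in 5 of 22 regulators of the integrated stress response with a promoter in the table (ATF3, CEBPG, CHAC1, FGF21 and JDP2), in 4 of 13 enzymes of amino acid and one-carbon metabolism (ASNS, BCAT1, GOT1 and MTHFD1L), in 1 of 10 amino acid transporters, in 3 of 16 tRNA synthetases and in 1 of 21 ER chaperone and ERAD genes (HERPUD1). Among the 11509 tested genes that matched the table by symbol, of 15555, the share was 2.40%, and among all 27305 genes with a listed promoter it was 3.89%. It was 4.51% in the genes that rose at 4 h and 1.23% in those that fell. DDIT3, TRIB3 and SESN2, which rose strongly, hold no such letters in this window.

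For the chaperones the same is shown for HSPA8 and HSP90AA1, which fell and hold a heat shock element (GAA, TTC and GAA with 2 bases between them, on either strand), and for XBP1 and HSPA5, of which XBP1 rose and HSPA5 was not called, although both hold an ERSE (CCAAT and CCACG with 9 bases between them, on either strand).
HSPA8: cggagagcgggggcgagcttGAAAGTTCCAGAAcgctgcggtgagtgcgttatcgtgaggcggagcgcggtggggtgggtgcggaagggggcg (chr11:123062294-123062386, minus strand)
HSP90AA1: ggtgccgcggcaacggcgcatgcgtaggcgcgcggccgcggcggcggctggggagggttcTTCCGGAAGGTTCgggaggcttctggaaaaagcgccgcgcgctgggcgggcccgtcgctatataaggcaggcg (chr14:102087060-102087192, minus strand)
XBP1: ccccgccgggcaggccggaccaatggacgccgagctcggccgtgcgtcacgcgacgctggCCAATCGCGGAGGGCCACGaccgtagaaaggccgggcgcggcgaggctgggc (chr22:28800570-28800681, minus strand)
HSPA5: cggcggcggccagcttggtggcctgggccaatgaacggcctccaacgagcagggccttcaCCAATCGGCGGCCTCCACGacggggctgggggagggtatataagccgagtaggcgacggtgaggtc (chr9:125241344-125241469, minus strand)
A heat shock element stood before 4 of 13 cytosolic heat shock genes (HSP90AA1, HSP90AB1, HSPA8 and HSPD1) and 0.469% of the tested genes. Of these, HSP90AB1 and HSPD1 were not called at 4 h. No match was found for HSPA1B, DNAJB1, DNAJA1 or HSPH1, which fell, though 13 of the 14 tested genes had a listed promoter. An ERSE stood before 7 of 21 ER chaperone and ERAD genes (CALR, CANX, CRELD2, HSP90B1, HSPA5, PDIA6 and XBP1) and 0.148% of the tested genes. These matches describe letters only and say nothing of which factor was bound.

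Of 15555 genes tested, 1080 rose and 1039 fell after 4 h by edgeR's quasi-likelihood test at an adjusted p below 0.05 (6.94% and 6.68% of the genes). The changes were small. The median log2 fold change was 0.25 among genes that rose and -0.24 among those that fell, and 995 and 985 of them changed by less than 1.5-fold. By the thresholds of the study, a fold above 2 with an unadjusted p below 0.05, 62 genes rose and 55 fell (0.399% and 0.354%). These were mostly weakly expressed genes, since 51 of the 62 and 50 of the 55 had a mean level below 1 CPM, and 25 and 14 of them also passed the adjusted threshold (0.161% and 0.09% of the genes). The libraries of the groups did not overlap in 49.8% of all genes tested, so that a gap between the groups is in itself no rare event here. Such a gap was present in all 1080 rises and all 1039 falls called by adjusted p. Where it is given below for a called gene it describes the values and adds no support to the call. Levels throughout are CPM, read counts scaled to the size of the library with TMM factors, and log2 fold changes are enzalutamide over vehicle. The standard error (SE) is approximate, the absolute log2 fold change divided by the square root of the test's F statistic.

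Both enzalutamide libraries came from columns prefixed ZC2, a prefix shared by 1 of the 3 summed vehicle columns. That column is called the ZC2 vehicle run here, and columns of 1 prefix a set. These are names only, since the labels do not explain the prefix. The libraries held 38894876 to 59985287 estimated counts each. The enzalutamide replicates stood farther apart than any other pair of replicates of the ligand experiment, at a chi-square per gene of 9.55 against 5.07 for vehicle and 2.01 to 4.46 for the others. Enzalutamide replicate 2 was farther from vehicle than replicate 1 in 71.2% of the called genes. With each of the 4 libraries left out in turn, 301 of the 1080 rises and 344 of the 1039 falls were called every time. Without enzalutamide replicate 2 there were 486 rises and 620 falls, without replicate 1 there were 1697 and 1416, without vehicle replicate 1 there were 505 and 553, and without vehicle replicate 2 there were 505 and 666. Against the ZC2 vehicle run alone the counts were 334 and 425. The summed luminal markers, among them KRT8, KRT18 and KLK3, were at 4593 to 4655 CPM in vehicle and 4464 to 4470 CPM with enzalutamide. Of 4 basal markers 1 passed the filter (KRT14, at 0.0508 CPM or less), of 4 leukocyte markers 1 (CD68, 1.18 to 1.47 CPM) and of 3 endothelial markers 1, VWF, at 15.6 and 16.4 CPM in vehicle and 12.7 and 13.03 CPM with enzalutamide. The 4 fibroblast markers tested summed to 26.2 and 26.4 CPM in vehicle and 22.5 and 27.3 CPM with the drug, and the 2 neuroendocrine markers to 55.6 and 58.8 CPM and 54.6 and 60.2 CPM. The part of these shifts in the results below was not tested.

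**Figure D1:**
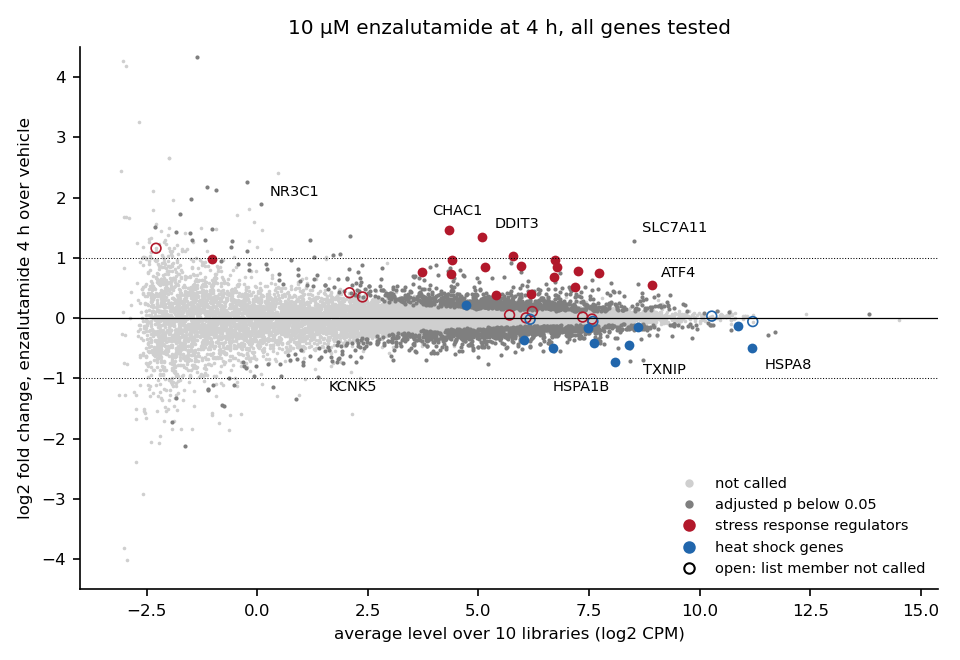
Log2 fold change of enzalutamide at 4 h over vehicle (y axis) against the average log2 CPM over the 10 ligand libraries (x axis) for the 15555 genes tested, with 3 genes outside the plotted range. Dark grey marks genes with an adjusted p below 0.05, red the stress response regulators, blue the heat shock genes, and the dotted lines a 2-fold change. CHAC1 and DDIT3 lie above the upper line, and the heat shock genes that changed lie mostly below 0.

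Regulators of the integrated stress response rose together. Of 26 genes on this list 18 rose and 0 fell, with a median log2 fold change of 0.74 against 0.0015 over all genes tested, and 17 of the 18 were called with any 1 library left out. INHBE was the exception, with 12 to 35 counts in each library and an adjusted p of 0.0685 to 0.165 in those fits. CHAC1, a glutathione-degrading enzyme induced by ATF4, was at 12.9 and 12.6 CPM in the vehicle libraries and at 35.1 and 35.4 CPM with enzalutamide. DDIT3, the transcription factor CHOP, was at 22.1 and 21.0 CPM in vehicle and at 57.7 and 52.9 CPM with the drug. In both genes the replicates lay close together and far from the other group. Their log2 fold changes were 1.47 (SE 0.08, adjusted p = 1.81e-07) and 1.35 (SE 0.06, adjusted p = 3.27e-08).

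ATF4 itself, the transcription factor at the centre of the response, was at 410.0 and 404 CPM in vehicle and at 608 and 585 CPM with enzalutamide. This rise of 1.47-fold was smaller than that of several genes it is known to control. TRIB3, a pseudokinase that feeds back on ATF4, rose by 1.94-fold, from 74.9 and 76.6 CPM to 147 and 146 CPM. SESN2, a sensor of leucine that restrains mTORC1, went from 41.8 and 45.3 CPM to 91.7 and 86.3 CPM, and DDIT4, another inhibitor of mTORC1, from 173 and 171 CPM to 290.2 and 289.9 CPM. CEBPB, a partner of ATF4, was at 15.8 and 17.1 CPM in vehicle and 31.7 and 32.2 CPM with the drug. None of these groups overlapped, and their log2 fold changes were 0.55 for ATF4, 0.96 for TRIB3, 1.03 for SESN2, 0.75 for DDIT4 and 0.97 for CEBPB. The stress factor ATF3 (0.85), the secreted peptide genes ADM2 (0.86), STC2 (0.84) and GDF15 (0.77), the transcription factors JDP2 (0.77), CEBPG (0.68) and NUPR1 (0.51), the lipoprotein receptor VLDLR (0.74), the ER-phagy receptor CCPG1 (0.41) and the kinase gene EIF2AK3 (0.39) rose too, all with an adjusted p of at most 0.000318.

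The 8 list members that were not called were of different kinds. FGF21 had 5 to 16 counts per library and a log2 fold change of 1.16 (SE 0.53, adjusted p = 0.181). PPP1R15A, the phosphatase subunit that ends eIF2 phosphorylation, was at 4.15 and 3.66 CPM in vehicle and 5.67 and 4.86 CPM with enzalutamide (adjusted p = 0.0602), and the cell death gene BBC3 stood as near the threshold (0.35, adjusted p = 0.0531). The others, ATF5, EIF2AK2, EIF2AK4, EIF4EBP1 and TNFRSF10B, had log2 fold changes between -0.02 and 0.11. ATF5, a factor translated in the same way as ATF4, was at 59.4 and 65.7 CPM in vehicle and 64.8 and 60.4 CPM with the drug, so that the groups overlapped.

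**Figure D2:**
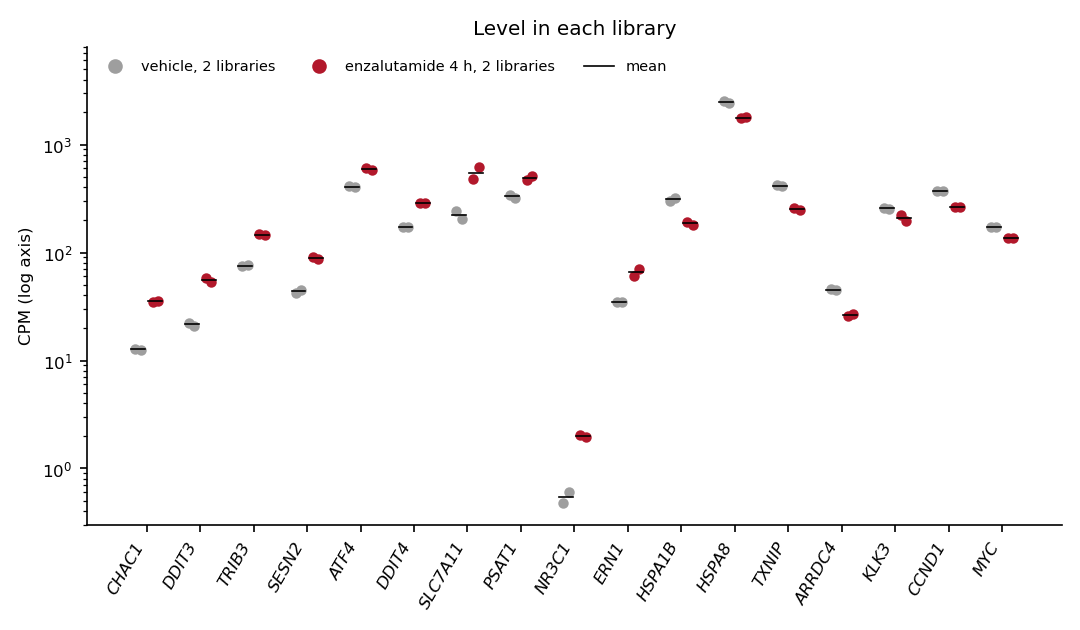
Level of 17 genes in each vehicle library (grey) and each enzalutamide 4 h library (red), in CPM on a log axis, with the mean as a bar. For each gene shown the 2 groups do not overlap, with the genes from CHAC1 to ERN1 higher under enzalutamide and those from HSPA1B to MYC lower.

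Amino acid transporters rose with these regulators. Of 11 tested transporters 9 rose and 0 fell (median 0.52). SLC7A11, the cystine importer of system xc-, was at 241 and 206 CPM in vehicle and at 478 and 615 CPM with enzalutamide, and its log2 fold change of 1.29 (SE 0.10, adjusted p = 3.14e-06) placed it among the 12 large rises taken by the rule for named genes. Both treated libraries were well above both vehicle libraries, though they differed from each other more than those of CHAC1. Its partner SLC3A2, the heavy chain of several exchangers, rose by 0.52 on the log2 scale, the leucine carrier SLC7A5 by 0.70, the neutral amino acid carriers SLC1A4 and SLC1A5 by 0.79 and 0.34, the glycine carrier SLC6A9 by 0.66, and the cationic amino acid carrier SLC7A1 by 0.58. SLC38A1 and SLC38A2 rose by 0.24 and 0.35. The rise of SLC38A1 was not called without enzalutamide replicate 2 (adjusted p = 0.134) or vehicle replicate 2 (0.145). SLC36A4 (-0.04) and SLC43A1 (0.09) were not called.

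Among enzymes of amino acid and one-carbon metabolism 10 of 20 rose and 0 fell (median 0.21). CTH, which makes cysteine from cystathionine, was at 15.8 and 14.7 CPM in vehicle and at 25.6 and 27.1 CPM with enzalutamide, a log2 fold change of 0.78. The mitochondrial folate enzyme MTHFD2 went from 153 and 146 CPM to 224 and 239.9 CPM, and PSAT1 of serine synthesis from 338 and 323 CPM to 467 and 509 CPM. These groups were separate in every case. PSPH, also of serine synthesis, rose by 0.54, the transaminase GPT2 by 0.43, ASNS, which makes asparagine, by 0.43 and the mitochondrial PEP carboxykinase PCK2 by 0.42. The first enzyme of serine synthesis, PHGDH, rose by only 0.17 (644 and 661 CPM to 737 and 726 CPM), and SHMT2 by 0.17. MTHFD1L rose by 0.26, and was not called without vehicle replicate 1 (adjusted p = 0.204) or enzalutamide replicate 2 (0.0757). Members that were not called include the proline enzymes PYCR1 (0.05) and ALDH18A1 (-0.08), CBS (-0.06) and BCAT1 (0.47, adjusted p = 0.0668).

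Cytosolic aminoacyl-tRNA synthetases, which load amino acids onto tRNAs, split. Of 20 genes 10 rose and 2 fell (median 0.12). CARS for cysteine rose by 0.56 on the log2 scale, GARS for glycine by 0.42, AARS for alanine by 0.38 and SARS for serine by 0.36. AARS was at 568 and 559 CPM in vehicle and 735 and 731 CPM with the drug. TARS, YARS, MARS, EPRS, NARS and WARS rose by 0.13 to 0.30. The calls of NARS and WARS were lost without vehicle replicate 2 (adjusted p = 0.084 and 0.0916), that of NARS also without enzalutamide replicate 2 and that of WARS also without vehicle replicate 1. The genes that fell were FARSA, a subunit of the phenylalanine enzyme, at 138 and 146 CPM against 123 and 114 CPM, and RARS for arginine, at -0.12, whose call was lost with each of the 4 libraries left out (adjusted p up to 0.184). The other subunit of the phenylalanine enzyme, FARSB, was at -0.04 and was not called.

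Genes of the ER stress response rose in part. Of 22 ER chaperone and ERAD (ER-associated degradation) genes 8 rose and 0 fell (median 0.09). ERN1, the ER stress sensor IRE1, was at 35.05 and 34.8 CPM in vehicle and at 61.0 and 70.2 CPM with enzalutamide, a log2 fold change of 0.91 (SE 0.06, adjusted p = 2.08e-06). HERPUD1, which helps clear proteins from the ER, went from 89.2 and 87.9 CPM to 148 and 149 CPM, and XBP1, whose mRNA IRE1 splices, from 189 and 175 CPM to 255 and 254 CPM. All treated libraries of these genes were above the vehicle libraries. SEL1L, a part of the ERAD ligase, rose by 0.27. Several main ER chaperones were not called. HSPA5 (BiP), the main ER chaperone, was at 871 and 854 CPM in vehicle and 871 and 879.5 CPM with the drug (log2 fold change 0.02, SE 0.03, adjusted p = 0.666), HSP90B1 was at -0.03, CALR at -0.01, PDIA4 at -0.01 and PDIA6 at 0.03. The 4 further rises, ATF6 (0.18), CREB3L2 (0.23), EDEM1 (0.25) and DNAJC3 (0.19), each depended on single libraries. ATF6 was lost without vehicle replicate 2 (adjusted p = 0.0627), CREB3L2 without enzalutamide replicate 2 (0.0531), EDEM1 without either of these (0.0623 and 0.0595), and DNAJC3 without either of them or vehicle replicate 1 (up to 0.153). With the ZC2 vehicle run alone, and in a fit of the 4 libraries alone, 4 genes of the list were called.

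Antioxidant genes under NRF2 were not called in either direction. Of 21 tested genes 0 rose and 0 fell at the adjusted threshold by edgeR, DESeq2 or limma (median 0.04). At an unadjusted p below 0.05 by edgeR 5 were higher and 0 lower. The share of all genes tested at that threshold was not counted, so this number cannot be weighed. NFE2L2, which encodes NRF2, was at 66.8 and 68.2 CPM in vehicle and 70.3 and 75.2 CPM with enzalutamide (adjusted p = 0.112), and was called without enzalutamide replicate 1 (0.0231). NQO1, a classical target, was at 229 and 227 CPM against 230.0 and 240.3 CPM, HMOX1, heme oxygenase, at 5.70 and 5.97 CPM against 5.90 and 6.69 CPM, and GCLM of glutathione synthesis at 56.6 and 57.9 CPM against 59.8 and 65.8 CPM. SLC7A11, which NRF2 can also activate, was counted with the transporters.

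Cytosolic heat shock genes went down. Of 14 tested genes 9 fell and 1 rose (median -0.16). HSPA1B, an inducible HSP70, was at 300.3 and 320.2 CPM in vehicle and at 194 and 181 CPM with enzalutamide, a log2 fold change of -0.73 (SE 0.04, adjusted p = 3.91e-07). Its near-identical copy HSPA1A did not pass the filter, so reads of both may stand under HSPA1B. The constitutive HSP70 gene HSPA8 was at 2543 and 2445 CPM in vehicle and 1763 and 1780.0 CPM with the drug, and the HSP40 genes DNAJB1 and DNAJA1, which present clients to HSP70, at 114 and 115 CPM against 84.8 and 78.1 CPM and at 374 and 367 CPM against 275 and 270.0 CPM. Each treated library lay below each vehicle library. The log2 fold changes were -0.49, -0.49 and -0.44. The nucleotide exchange factors HSPH1 and BAG3 fell by 0.41 and 0.37 on the log2 scale, and HSPA4 fell by 0.14. HSP90AA1 (-0.13) was not called without vehicle replicate 1 (adjusted p = 0.123) and HSPB1 (-0.17) not without vehicle replicate 2 (0.289) or enzalutamide replicate 2 (0.248). The 1 gene that rose, DNAJB4 (0.22), was called in 1 of the 4 fits with a library left out (adjusted p up to 0.142). HSP90AB1, HSF1 and the mitochondrial chaperones HSPD1 and HSPE1 had log2 fold changes between -0.06 and 0.03.

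**Figure D3:**
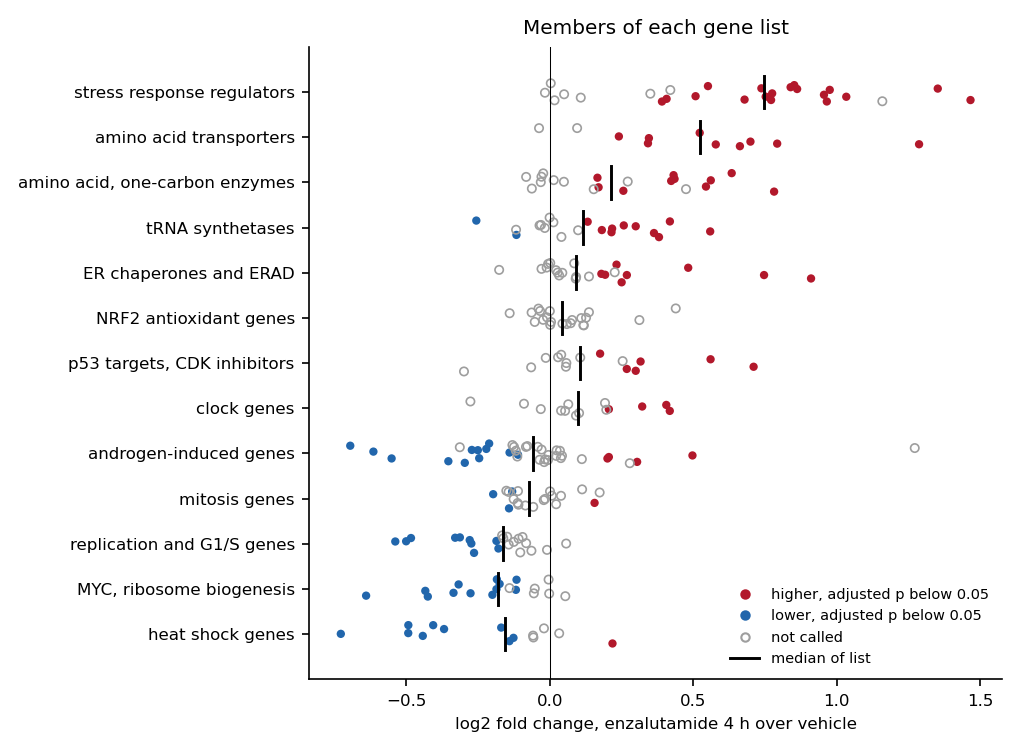
Log2 fold change at 4 h of the tested members of 13 gene lists (one point per gene). Red and blue mark genes that rose or fell at an adjusted p below 0.05, open grey points genes not called, and the bar the median of the list, which is 0.74 for the stress response regulators and -0.16 for the heat shock genes.

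A pair of arrestin genes that respond to glucose fell together. TXNIP, an arrestin that limits glucose uptake, was at 423 and 409.9 CPM in vehicle and at 257 and 249 CPM with enzalutamide, and ARRDC4, its close relative, at 45.5 and 44.6 CPM against 25.9 and 27.2 CPM. The log2 fold changes were -0.72 (SE 0.03, adjusted p = 5.36e-08) and -0.76 (SE 0.05, adjusted p = 1.59e-06). Both are known targets of the glucose-sensing factors MondoA (MLXIP) and MLX, whose own genes were at -0.02 and -0.10 and were not called. The third arrestin measured, ARRDC3, was at 216 and 211 CPM in vehicle and 234 and 242 CPM with the drug, a rise of 0.16 that was called in 1 of 4 fits with a library left out (adjusted p up to 0.119). Of the glycolytic genes on the list HK2 (-0.20), PFKFB3 (-0.21) and ENO1 (-0.12) fell, and HK1, PFKFB2, PFKP, ALDOA and PKM (-0.08 to 0.15) were not called. The 3 falls were called with all libraries but not with every library left out: HK2 was lost without vehicle replicate 1 (0.0751), PFKFB3 also without either enzalutamide library (up to 0.228) and ENO1 without vehicle replicate 2 or enzalutamide replicate 2 (0.0623 and 0.0619).

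Androgen-induced genes fell in part. Of 38 tested genes 12 fell and 4 rose (median -0.06). The transporter gene SLC45A3 was at 46.6 and 50.7 CPM against 34.1 and 32.1 CPM (-0.55). KLK3, which encodes prostate-specific antigen (PSA), was at 259 and 254 CPM in vehicle and 224 and 194 CPM with the drug, a log2 fold change of -0.30 (adjusted p = 0.00267). Both treated libraries were below the vehicle libraries, with replicate 2 the lower. FKBP5, a chaperone partner of steroid receptors, fell by 0.25, SPDEF, an ETS factor of luminal cells, fell by 0.35, and ADAMTS1, a secreted protease, fell by 0.14. TMPRSS2 (-0.08, adjusted p = 0.198) was not called. Of the 12 falls 6 were called with any 1 library left out, and the others were KLK2, KLK4, RHOU, SORD, PLPP1 and KCNN2. KLK2 (8.79 and 7.49 CPM against 6.28 and 4.56 CPM) was lost without vehicle replicate 1 (0.0913) or enzalutamide replicate 2 (0.0625), and the other 5 had an adjusted p of up to 0.251 in such fits. In a fit of the 4 libraries alone 6 genes of the list fell, and against the ZC2 vehicle run alone 7. The 4 that rose were MAF, a transcription factor (0.50), ERRFI1, an inhibitor of EGF receptor signalling (0.30), TSC22D1 (0.20) and ZBTB10 (0.21), the last with a call that was lost in 3 of the 4 fits with a library left out (adjusted p up to 0.469). Against the ZC2 vehicle run alone all 4 calls were lost. DHT, the active androgen, at 10 nM for 4 h raised 33 of the same 38 genes against the same vehicle libraries and lowered 0 (4.66% and 2.11% of all genes tested rose and fell).

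Of 21 tested genes known to be repressed by androgen 2 rose and 3 fell. These were 9.52% and 14.3%, beside 6.94% and 6.68% of all genes tested. DHT at 4 h lowered 5 of the same 21 genes and raised 2 (median -0.03), beside 2.11% and 4.66% of all genes tested. Most of the list was thus not called as repressed by androgen at this time. The calls that held with any 1 library left out were CAMK2N1, an inhibitor of CaM kinase II, which rose by 0.18, and LRRN1, a leucine-rich repeat protein, which fell from 197 and 189 CPM to 153 and 161 CPM. CDK8 (0.21), ACKR3 (-0.13) and UGT2B28 (-0.32) were each lost in 2 to 4 of those fits (adjusted p up to 0.169).

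Among steroid receptors NR3C1, the glucocorticoid receptor, stood out by its fold. It was at 0.479 and 0.609 CPM in vehicle, or 29 and 24 counts, and at 2.02 and 1.95 CPM with enzalutamide, or 86 and 96 counts. The groups were well separated, and the log2 fold change was 1.89 (SE 0.23, adjusted p = 0.000184). Its size depended on the processing, and it ranged from 0.95 with limma on log2(CPM + 1) to 2.64 over the alternatives. These differ in the treatment of low counts and also in the libraries used. The mineralocorticoid receptor NR3C2 rose from 7.90 and 8.53 CPM to 10.5 and 10.8 CPM, a call that was lost without vehicle replicate 1 (adjusted p = 0.131) or enzalutamide replicate 2 (0.0706). ESRRA fell (-0.24), with a call lost without vehicle replicate 2 or enzalutamide replicate 2 (0.187 and 0.194). Known glucocorticoid targets went both ways, 4 up and 2 down of 12 tested. These were 33.3% and 16.7%, beside 6.94% and 6.68% of all genes tested. DHT at 4 h raised 8 of the same 12 genes and lowered 1 (median 0.69), beside 4.66% and 2.11% of all genes tested. Most of this list therefore also answered to androgen in these cells. TSC22D3 (GILZ) rose from 50.8 and 46.7 CPM to 84.1 and 81.8 CPM (0.76) and KLF15 rose by 0.40, whereas ZBTB16 fell from 36.04 and 35.5 CPM to 26.4 and 26.9 CPM (-0.43) and FKBP5, named above, fell as well. ERRFI1, an androgen-induced gene too, rose by 0.30, and the rise of KLF9 (0.13) was lost in 3 of 4 fits with a library left out (adjusted p up to 0.277). PER1 was not called (0.10, adjusted p = 0.494).

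The pioneer and lineage factors went both ways, 2 up and 4 down of 12 tested. These were 16.7% and 33.3%, beside 6.94% and 6.68% of all genes tested. GATA2, a zinc finger factor that the study follows, was at 223 and 237 CPM in vehicle and 184 and 167 CPM with enzalutamide, a log2 fold change of -0.39 (SE 0.05, adjusted p = 0.000198). FOXA1, the other main pioneer factor of prostate cells, was at 495 and 499 CPM against 570.3 and 570.4 CPM (0.20). GATA2 was lower and FOXA1 higher in both treated libraries. HOXB13 (-0.17) was lost without vehicle replicate 2 or enzalutamide replicate 2 (0.16 and 0.114). ETV5 (0.96), with 17 to 33 counts per library, was lost without vehicle replicate 1 or either enzalutamide library (up to 0.276).

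Of the genes the study names, 6 of 16 tested rose and 2 fell, and since the study drew some of them from these samples their direction is not independent evidence throughout. Of these, SLC7A11, NR3C1, TSC22D3, FOXA1, KLK3 and GATA2 are given above. VEGFA, an angiogenic growth factor, was at 88.3 and 82.8 CPM in vehicle and 113 and 101 CPM with enzalutamide (0.32), and CPEB4, an RNA-binding protein, at 98.7 and 90.5 CPM against 109 and 133 CPM (0.36), a call that was lost without vehicle replicate 2 (adjusted p = 0.0605). CEMIP, a hyaluronan-binding protein also known as KIAA1199, had 8 to 19 counts per library and a log2 fold change of 1.00 (SE 0.43, adjusted p = 0.145). BIRC5 and CDK1, which act in mitosis, were both at -0.11 and were not called, nor were MED1 (0.04) and MED14 (0.05) of the Mediator complex or IGF2 (0.02). LAMP3 did not pass the filter.

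Genes of DNA replication and of entry into S phase were lower by small amounts. Of 22 tested genes 10 fell and 0 rose (median -0.16). At an unadjusted p below 0.05 by edgeR 18 were lower, a threshold at which the share of all genes tested was not counted. CCND1, cyclin D1, which drives cells through G1, was at 372 and 370.4 CPM in vehicle and at 262 and 263 CPM with enzalutamide, a log2 fold change of -0.50 (SE 0.03, adjusted p = 3.54e-07). CCNE1, cyclin E1, was at 18.1 and 16.5 CPM against 11.4 and 12.5 CPM (-0.54), and CDC25A, a phosphatase that activates CDKs, at 30.7 and 29.98 CPM against 21.4 and 21.97 CPM (-0.48). UHRF1, which maintains DNA methylation, fell by 0.33. These 4 were called with any 1 library left out. CDC6, MCM4, RRM2, E2F8 and GINS2 (-0.19 to -0.31) were lost without vehicle replicate 1 (adjusted p = 0.0508 to 0.0714) and MCM7 (-0.18) without vehicle replicate 2 (0.0537). With each vehicle column taken as a sample 16 genes fell.

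Genes of mitosis were called singly. Of 20 tested genes 3 fell and 1 rose (median -0.07), or 15% and 5% beside 6.68% and 6.94% of all genes tested, and each call was lost with at least 2 of the libraries left out. CCNB1, PLK1 and BUB1B fell by 0.13 to 0.20 on the log2 scale (adjusted p up to 0.202 in those fits). TOP2A, which untangles DNA, was at 213 and 199.5 CPM in vehicle and 220.1 and 239 CPM with enzalutamide, a rise of 0.16 (adjusted p up to 0.258).

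MYC, a transcription factor of growth, fell, as did genes of ribosome biogenesis. MYC was at 171 and 173 CPM in vehicle and 137 and 135 CPM with enzalutamide, a log2 fold change of -0.34 (SE 0.03, adjusted p = 3.49e-05). Of the 18 genes of this list, MYC included, 12 fell and 0 rose (median -0.18). NOP16, which acts in assembly of the large ribosomal subunit, was at 32.2 and 30.5 CPM in vehicle and 21.5 and 18.9 CPM with the drug (-0.64), and NOP56, a core protein of box C/D snoRNPs, at 235 and 224 CPM against 175 and 164 CPM (-0.43). BYSL fell by 0.43, the RNA polymerase I subunit gene POLR1B by 0.32 and BOP1 by 0.28. NOP58 (-0.20) and DKC1 (-0.18) were lost without vehicle replicate 1 (adjusted p = 0.0509 and 0.0628), and NCL, WDR12, PES1 and NOLC1 (-0.12 to -0.19) in 2 or 3 of the 4 fits with a library left out (up to 0.132). In that fit without vehicle replicate 1, and in a fit of the 4 libraries alone, 6 genes of the list fell.

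CDK inhibitors and targets of p53 rose in part, 6 of 15 with 0 falls (median 0.11). CDKN1A (p21) was at 92.9 and 95.8 CPM in vehicle and 117 and 115 CPM with enzalutamide (0.30), CDKN1B (p27) at 95.7 and 94.0 CPM against 114 and 115 CPM (0.27), and GADD45A, a stress gene, at 10.2 and 8.99 CPM against 14.0 and 14.5 CPM (0.56). CDKN2B (0.71), CDKN2D (0.32) and MDM2 (0.18) were each lost with 2 or more of the libraries left out (adjusted p up to 0.265). Among 13 genes of the BCL2 family 1 rose and 1 fell, 7.69% each, near the 6.94% and 6.68% of all genes tested. PMAIP1 (NOXA), which promotes apoptosis, rose from 11.6 and 10.6 CPM to 19.9 and 21.2 CPM (0.88, SE 0.07, adjusted p = 5.04e-06). BID, another of that kind, fell by 0.30.

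Other gene groups known to respond to drugs had 1 or 2 calls each, a share of 6.25% to 11.1% of their genes beside 6.94% of all genes tested that rose and 6.68% that fell. Of 18 tested immediate early genes 2 fell, MYC and JUN (-0.22, lost without vehicle replicate 2 or enzalutamide replicate 2 with adjusted p = 0.121 and 0.0874), and 0 rose. FOS was at 0.38 and 0.406 CPM in vehicle and 0.47 and 0.75 CPM with enzalutamide (adjusted p = 0.191). Of 9 tested xenobiotic metabolism genes 1 rose, the dioxin receptor AHR (0.44), and of 16 interferon-response genes 1, B2M (0.14), and both calls were lost with 3 or more of the libraries left out (adjusted p up to 0.185 and 0.357).

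Among lipid genes, 10.5% of those of cholesterol synthesis and uptake fell and 5.26% rose. Of those of fatty acid synthesis 35.7% fell. The shares of all genes tested were 6.68% that fell and 6.94% that rose. Of 19 genes of cholesterol synthesis and uptake 2 fell and 1 rose, and the rise of SC5D (0.16), an enzyme late in the pathway, was lost with 3 of the 4 libraries left out in turn (adjusted p up to 0.246). Of 14 genes of fatty acid synthesis 5 fell and 0 rose, of which the desaturase gene FADS1 (-0.20) held and SREBF1, FADS2, ELOVL6 and MFSD2A did not (up to 0.302).

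Other large changes that the naming rule takes were in weakly expressed genes, most of them outside these lists. BCL11B, a zinc finger transcription factor, was at 1.60 and 1.22 CPM in vehicle and 2.96 and 4.07 CPM with enzalutamide (1.30), and CD55, which protects cells from complement, at 1.47 and 1.498 CPM against 3.10 and 3.06 CPM (1.05). KCNK5, a potassium channel, fell from 3.25 and 3.27 CPM to 1.83 and 1.5 CPM (-0.97). MFSD2A (-0.77), a lipid carrier gene also on the fatty acid list, NAV3 (-0.73) and the Notch modifier LFNG (-0.73) were lost without vehicle replicate 1 (adjusted p = 0.1, 0.0588 and 0.0518), and MIR17HG (-0.75), the host transcript of a microRNA cluster, and SPACA6 (-0.73) also without enzalutamide replicate 2 (0.114 and 0.0746). CHKB-CPT1B (1.36), BLOC1S5-TXNDC5 (1.02) and GPR75-ASB3 (-0.71) are read-through genes that share sequence with the genes they join, and ASNSP1 (1.06) is a pseudogene of ASNS, so that reads of these cannot be told apart from those of their relatives. The calls of BLOC1S5-TXNDC5 and GPR75-ASB3 were also lost with 2 of the libraries left out (up to 0.227 and 0.0997).

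The other enzalutamide and DHT conditions set these values in context. Enzalutamide at 24 h and DHT at 4 h were compared with the same vehicle libraries, so their values are only set side by side. At 24 h 16.4% of all genes rose and 17% fell. Of the stress response regulators 24 of 26 rose at 24 h and 0 fell (median 0.69), where DHT at 4 h raised 3 and lowered 4 (median -0.09). CHAC1 had a log2 fold change of 1.47 at both 4 h and 24 h with enzalutamide and of -0.39 with DHT. DDIT3 was at 1.35, 1.37 and -0.05 in that order, SLC7A11 at 1.29, 1.46 and 0.15, and TSC22D3 at 0.76, 1.03 and -0.33. ERN1 was at 0.91 and 0.83 with enzalutamide and also rose with DHT (0.95). KLK3 was at -0.30 and -1.22 with enzalutamide and 1.27 with DHT. GATA2 fell in all 3 comparisons (-0.39, -0.19 and -0.31).

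Enzalutamide at 24 h and 4 h was tested directly in the same fit, where 11.7% of all genes were higher and 12.9% lower at 24 h (0.321% and 1.48% by more than 2-fold). TXNIP and ARRDC4 were higher at 24 h than at 4 h, by 0.80 and 0.71 on the log2 scale, and neither was called at 24 h against vehicle (0.09 and -0.06). HSPA8 and CCND1 were higher at 24 h by 0.28 and 0.41, with log2 fold changes against vehicle of -0.22 and -0.10 at that time. Against vehicle, all 22 genes of replication and S phase entry fell at 24 h, CCND1 among them (median -1.22). So did all 20 mitosis genes (median -1.19), where 17% of all genes tested fell. RRM2, a subunit of ribonucleotide reductase, was at -0.27 at 4 h and -1.67 at 24 h. CHAC1 and DDIT3 differed between the times by 0.0017 and 0.01 (adjusted p = 0.99 and 0.869), and ATF4 was higher at 24 h by 0.21 (adjusted p = 0.000287).

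A separate experiment with no library in common used cells with a control siRNA (siControl), 25 µM enzalutamide for 24 h and 3 libraries per group, given as RPKM and tested by limma on log2(RPKM + 0.1), a scale that understates the change of low genes. Dose and time both differ, so values stand side by side. Of 20369 genes 17.7% rose and 24.4% fell there by adjusted p, and 0.599% and 1.53% by the 2-fold rule of the study. Of the stress response regulators 24 of 26 rose and 0 fell (median 1.07), and CHAC1, at 4.75 to 5.14 RPKM in vehicle and 33.1 to 40.5 RPKM with enzalutamide, had a log2 difference of 2.87. Of the 1075 genes that rose at 4 h and were tested there, 623 rose and 95 fell, against 3409 and 4636 of all 15404 shared genes. Of the 1037 that fell at 4 h and were tested there, 703 fell and 59 rose. GATA2 went the other way, at 77.0 to 86.1 RPKM in vehicle and 128 to 132 RPKM with enzalutamide, where it had fallen at 4 h. NR3C1 was near 0 in that experiment, at 0.00540 to 0.00902 RPKM in vehicle and 0.0250 to 0.0354 RPKM with the drug.

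**Figure D4:**
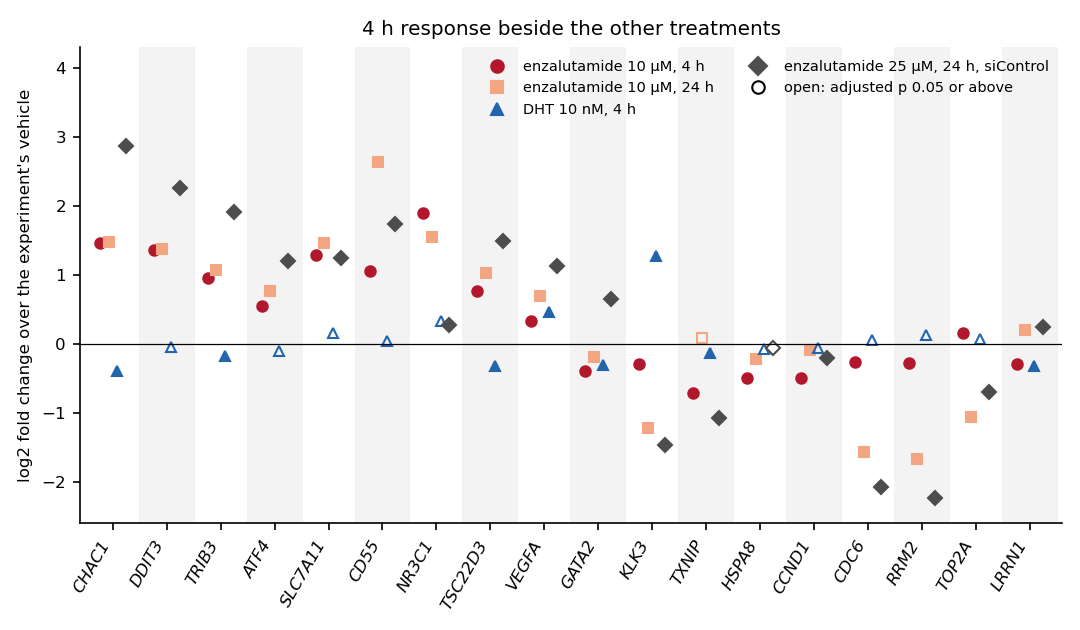
Log2 fold change of 18 genes (y axis) under enzalutamide 10 µM at 4 h (circles), enzalutamide 10 µM at 24 h (squares) and DHT 10 nM at 4 h (triangles), all over the same vehicle libraries, and under enzalutamide 25 µM at 24 h in siControl cells (diamonds) over their own vehicle. Open symbols mark an adjusted p of 0.05 or above. CHAC1 lies at 1.47 at both times and at 2.87 in siControl cells, and RRM2 at -0.27 at 4 h and -1.67 at 24 h.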

How the data were processed

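LNCaP RNA-seq libraries of polyadenylated RNA were compared between 10 µM enzalutamide for 4 h (2 samples) and vehicle (4 samples). The authors aligned reads to hg19 with TopHat2 2.0 and quantified genes with Partek Genomics Suite, per the labels. The gene annotation is not given in the sources used here. Deposited ligand tables hold estimated counts, which were rounded here. The deposited siRNA table holds RPKM made by the authors, and its depth is unknown.

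The 3 vehicle columns named replicate 1 were summed into 1 library because of that shared number. No label says that they are runs of 1 library. Their chi-square per gene was 1.51 to 1.54 between each other and 3.44 to 3.60 against the fourth vehicle column. The vehicle file lists 20260 genes and the ligand files 21962, of which 19995 are shared. After filterByExpr 15555 genes were tested in 1 model of 10 libraries and 5 conditions with edgeR 4.0.16 (R 4.3.3, TMM, quasi-likelihood test, Benjamini-Hochberg adjustment). Adjusted p-values in the text are from this test unless another is named. The siRNA table was tested with limma 3.58.1 on log2(RPKM + 0.1). The steps were first tested on simulated data. Alternatives were DESeq2 1.42.0, limma on log2 CPM, other scalings and filters, other uses of the vehicle columns, a replicate block and each library left out. Libraries of 38894876 to 59985287 counts leave spread between replicates, not counting error, as the main limit for all but weak genes.

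Samples were not paired by replicate number in the main test, and whether the numbers mark pairs is not known. The members and gene lists were chosen with earlier results of these data known. Genes named are the 12 largest rises and 10 largest falls by log2 fold change among called genes whose groups do not overlap and whose mean log2 CPM is 1 or more, the genes the study names, up to 8 called members of each list with its defining genes, and members near a threshold. List members outside this rule were named after their values were seen. Promoters are from RefSeq (GRCh38.p14), matched by symbol. Figures were drawn with matplotlib 3.10.9. Some genes that the rule takes are not reported here.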

Additional observations from a re-analysis of the deposited data

Results flagged for a closer look

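Enzalutamide at 24 h differed from enzalutamide at 4 h in 14 named genes, either by more than 2-fold or with calls in opposite directions against vehicle, by a direct test within the edgeR fit at an adjusted p below 0.05. The values are log2 differences, 24 h minus 4 h. In opposite directions, LRRN1 fell at 4 h and rose at 24 h (difference 0.50), and TOP2A (-1.22) and CDKN2D (-0.73) rose at 4 h and fell at 24 h. Calls at 4 h of TOP2A and CDKN2D were lost with single libraries left out, as given above. CD55 was higher at 24 h by 1.57. Lower at 24 h were the S phase genes CDC6 (-1.30), RRM2 (-1.40), GINS2 (-1.19) and MCM4 (-1.30), the mitosis genes BIRC5 (-1.04), CDK1 (-1.38), PLK1 (-1.22) and BUB1B (-1.17), and NAV3 (-1.24) and BLOC1S5-TXNDC5 (-1.17). No group had the 4 libraries that a search for single outlying libraries needs.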

How the results depend on the processing

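By adjusted p, 1080 rises and 1039 falls became 401 and 380 in a fit of the 4 libraries alone, 334 and 425 against the 1 vehicle run of the enzalutamide set, and 486 to 1697 and 553 to 1416 with 1 library left out. By the 2-fold rule, 62 rises and 55 falls became 32 and 31 with DESeq2, 5 and 0 with limma on log2(CPM + 1), 102 and 131 with no filter, 20 and 7 with a filter of 1 CPM, 101 and 118 against the 1 vehicle run, and 70 to 118 and 58 to 120 with 1 library left out. ER genes that rose, 8, became 4 in the fit of 4 libraries and 4 against the 1 vehicle run (5 to 10 with 1 left out). Androgen-induced genes that fell, 12, became 6 and 7 under the same settings, ribosome biogenesis genes, 12, became 6 in the fit of 4 libraries (6 to 12 with 1 left out), and replication genes, 10, became 16 with all vehicle columns as samples. In siControl cells 122 genes rose over 2-fold, 48 with a pseudocount of 1, 321 with 0.01 and 75 at a mean RPKM of at least 0.5, and 312 fell, 125 and 723 with those pseudocounts. Causes were not tested.

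The replicate block gave 927 rises and 853 falls by adjusted p and 62 and 57 by the 2-fold rule, and 3452 and 4776 by adjusted p in siControl cells (121 and 313 over 2-fold). Deviations of same-numbered vehicle and enzalutamide 4 h libraries correlated at -0.101, and the other pairs between -0.161 and 0.194. The siRNA pairs stood at 0.134, -0.231 and -0.062. With so few libraries per group these values cannot settle whether the numbers pair the samples. With the numbers crossed, a setting added after seeing the data, there were 1308 and 1235 (61 and 58 over 2-fold).

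Of 138 named genes with a call 0 changed direction, and 40 lost the call in the fit of 4 libraries, 54 against the 1 vehicle run, 7 with DESeq2 (121 kept it and the others had no adjusted p), 9 with the block and 9 to 37 with 1 library left out. Genes named here that changed sign were uncalled with all libraries. With 1 library left out, MED1 ranged from -0.016 to 0.091, MED14 from -0.028 to 0.12 (-0.000396 against the 1 vehicle run), and IGF2 from -0.16 to 0.18 (-0.0048 with all vehicle columns, -0.027 with 1 run as vehicle replicate 1 and -0.33 against the 1 vehicle run).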

Other observations

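Clock genes rose in part. Of 14 tested, 4 rose and 0 fell (median 0.10). The rises were 28.6%, beside 6.94% of all genes tested. NR1D2 (REV-ERB beta), a repressor within the clock, was at 107 and 108 CPM in vehicle and 129 and 139 CPM with enzalutamide (0.32), its target ARNTL (BMAL1) at 7.58 and 7.59 CPM against 10.1 and 9.97 CPM (0.41), and NFIL3, another repressor, at 16.3 and 14.5 CPM against 20.7 and 20.6 CPM (0.42). BHLHE40 (0.21) was lost in 3 of 4 fits with a library left out (adjusted p up to 0.208).

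Of 15 autophagy and lysosome genes 4 rose and 0 fell (median 0.06), or 26.7% that rose beside 6.94% of all genes tested. The autophagosome protein gene MAP1LC3B (0.21) and the autophagy receptor gene NBR1 (0.17) held with any 1 library left out, while SQSTM1 (0.20) and LAMP2 (0.12) did not (up to 0.0876 and 0.344). Of 14 hypoxia genes 3 rose and 1 fell, or 21.4% and 7.14% beside 6.94% and 6.68% of all genes tested. VEGFA (0.32) and LDHA, which makes lactate (-0.18), were the calls that held. PDK1 (0.16) and EGLN1 (0.19) were lost in 3 or 4 of those fits (up to 0.165 and 0.135).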
